A study of Homo sapiens with 43 samples.

Results

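The 10 genes described here are TECTA, AVIL, NAALAD2, MSH4, C20orf204, ALPK3, NEB, KLRD1, PTGDR2 and MGAM2. They were listed because their RNA was among the strongest rises in induced S34F cells against induced WT cells, induced Q157R cells or uninduced S34F cells, so those RNA differences chose them and are given as description, without tests. They are 10 of 58347 genes in the tables and of 21300 genes with enough RNA counts to be tested, and all 10 passed that filter on low counts, for which the libraries where they are high count too. The list is not simply the largest fold changes: among the 21300 genes, the members' ranks by log2 difference from induced WT ran from 32 for KLRD1 and 50 for TECTA to 1100 for PTGDR2 and 1765 for MGAM2.

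HEL is an established line from a human erythroleukemia; here it stably carried U2AF1 as wild type (WT), S34F or Q157R. Induced cells had received doxycycline at 1 µg/ml for 48 hours, and uninduced cells carried the same constructs without it; the labels name neither the number of clones nor the strength of the promoter. RNA-seq comprised 10 libraries made after rRNA depletion: 2 of uninduced WT, 1 of uninduced S34F, 1 of uninduced Q157R, and 2 each of induced WT, S34F and Q157R. The 7 eCLIP libraries came from induced WT cells, 3 for U2AF1 and 4 for U2AF2. All 17 freCLIP libraries came from induced cells, each from a light or a heavy fraction set by size. The light fraction (37 to 65 kD) comprised 3 of WT, 3 of S34F and 2 of Q157R. The heavy one (65 to 110 kD) comprised 4 of WT, 3 of S34F and 2 of Q157R. In both CLIP assays RNA crosslinked to the protein was recovered by immunoprecipitation, of U2AF1 with an antibody to FLAG.

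U2AF1 is the small subunit of the U2AF heterodimer and reads the AG at the end of introns, while U2AF2, the large subunit, binds the pyrimidine-rich tract before it. S34F and Q157R are recurrent mutations of myeloid neoplasms that lie in different zinc fingers of U2AF1 and are known to change which 3' splice sites are used. The 10 genes were not listed for a shared pathway. TECTA encodes alpha-tectorin of the tectorial membrane of the inner ear, AVIL encodes advillin, an actin-regulating protein of the villin family found in sensory neurons, NAALAD2 a glutamate carboxypeptidase, MSH4 a meiotic relative of mismatch repair proteins, ALPK3 an alpha-kinase of heart and muscle, NEB nebulin, the giant ruler of the thin filament, KLRD1 the CD94 chain of natural killer cell receptors, PTGDR2 the prostaglandin D2 receptor of basophils, eosinophils and T helper cells, and MGAM2 a relative of maltase-glucoamylase. C20orf204 is an open reading frame named by its chromosome.

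Upstream sequence is shown for members whose levels differ in pattern: TECTA and AVIL, which differed most between induced S34F and WT among the members found in the promoter table, and MGAM2, which was also higher after doxycycline in the other lines. Each run is the 250 bases before the RefSeq start on GRCh38.p14, 5′ to 3′, with capitals at matches to the letters searched.
TECTA upstream (chr11:121100993-121101242, + strand): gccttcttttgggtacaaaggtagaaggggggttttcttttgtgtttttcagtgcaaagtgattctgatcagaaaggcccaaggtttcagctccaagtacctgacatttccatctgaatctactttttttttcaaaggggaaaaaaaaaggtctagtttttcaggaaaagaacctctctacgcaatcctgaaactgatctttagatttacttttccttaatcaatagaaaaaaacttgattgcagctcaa
AVIL upstream (chr12:57818735-57818984, - strand): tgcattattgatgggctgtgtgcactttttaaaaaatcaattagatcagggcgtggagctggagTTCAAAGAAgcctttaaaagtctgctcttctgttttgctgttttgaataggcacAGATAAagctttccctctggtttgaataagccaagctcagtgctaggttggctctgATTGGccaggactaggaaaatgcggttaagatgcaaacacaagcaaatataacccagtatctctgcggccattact
MGAM2 upstream (chr7:142111468-142111717, + strand): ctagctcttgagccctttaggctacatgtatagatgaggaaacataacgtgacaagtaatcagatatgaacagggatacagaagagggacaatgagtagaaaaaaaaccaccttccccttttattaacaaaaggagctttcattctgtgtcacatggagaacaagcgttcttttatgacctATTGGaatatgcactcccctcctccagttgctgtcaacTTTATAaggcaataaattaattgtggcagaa
The table of promoters held 8 of the 10 genes; KLRD1 and PTGDR2 were not among them. In windows of 300 bases (250 before and 50 after the start) 8 sets of letters were searched on both strands. CCAAT was in 4 of the 8 members (AVIL, MSH4, NEB and MGAM2), against 34.6% of 34943 promoters of that length. GGGCGG was in 3 (NAALAD2, MSH4 and ALPK3; 44.9% of all), TATAAA in 2 (ALPK3 and MGAM2; 11.6%), and AGATAA (10.4%) and TTCNNNGAA (7.66%) in 1, AVIL. TGANTCA (7.72% of all), CACGTG (7.23%) and CCGGAA (17.2%) were in none of the 8, and TECTA and C20orf204 held none of the letters searched. TGANTCA and TTCNNNGAA can overlap other matches, and a match is only a match of letters. GC content ran from 36.7% with 1 CpG in TECTA to 78.0% with 36 CpG in ALPK3, around an all-promoter median of 58.7% and 14.

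The 10 genes differed as much in structure. Gene spans ran from 5032 bases in PTGDR2, whose transcript with most exons has 2, to 249152 bases in NEB, with 183 exons. The median span was 75850.5 bases and the median of the highest exon number 19.5, beside 29958 bases and 9 exons for 17569 protein-coding genes with an RNA count.

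The RNA level of every member was highest in the induced S34F libraries. Levels are counts scaled to library size with TMM (CPM), and fold differences on the log2 scale are edgeR estimates with their standard error (SE). Both induced S34F libraries stood above all 8 other RNA libraries for 10 of 10 members, a pattern held by 17.3% of all genes tested. Of all genes tested, 0.681% were called higher (adjusted p under 0.05) against induced WT, 0.3% against induced Q157R and 0.704% against uninduced S34F, a single library; calls of the members, which these differences chose, are not given. Every library of induced S34F lay above every library of the other group for 10 of 10 members in each comparison, as it did for 28.9%, 27.8% and 43.1% of all genes, a count that follows from the listing. The 3 comparisons share the induced S34F libraries.

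**Figure D1:**
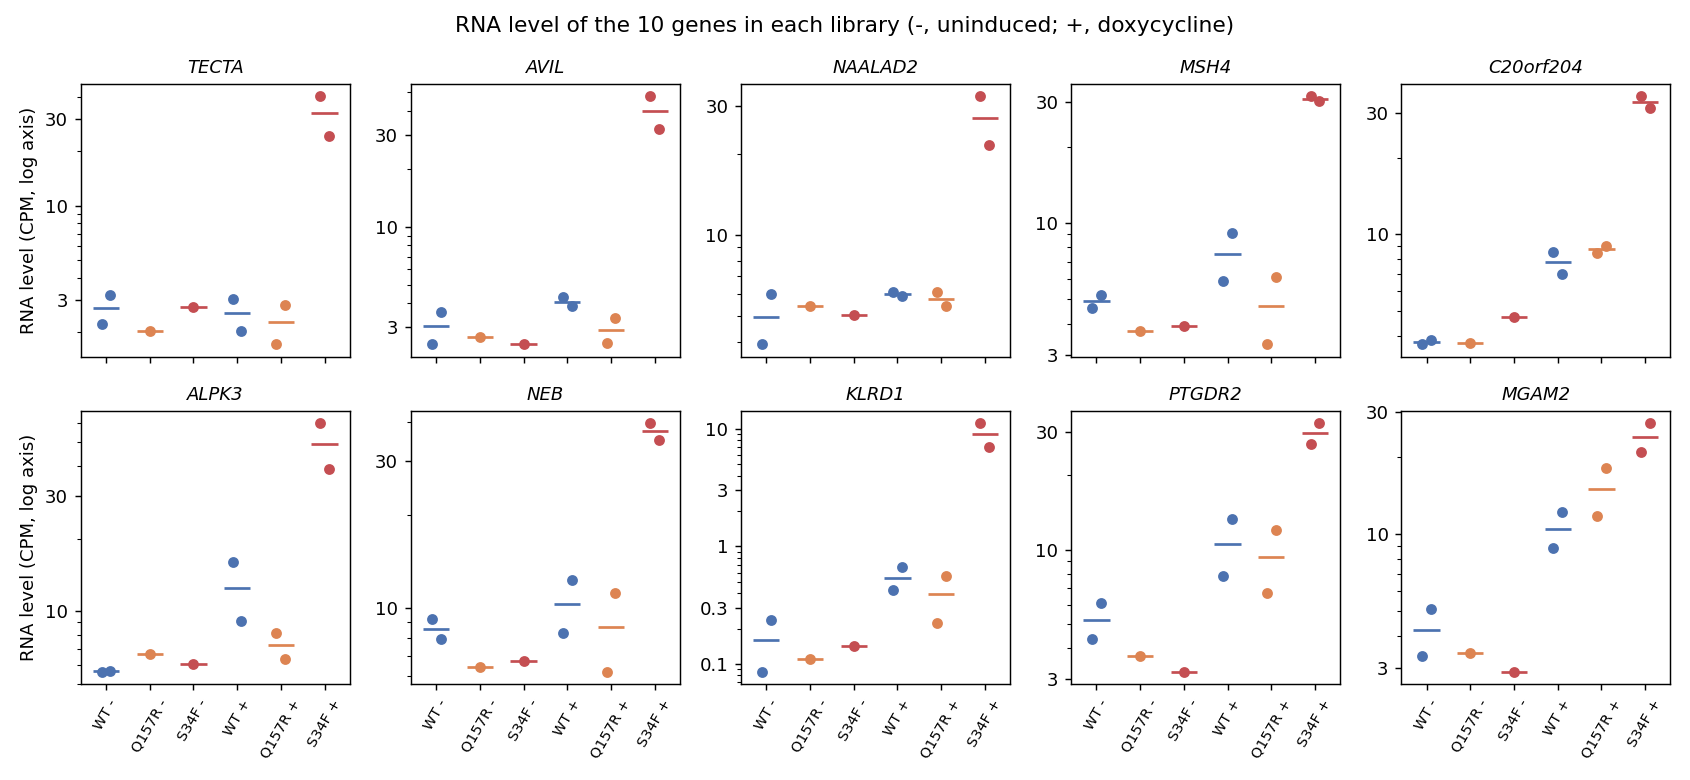
RNA level of each gene in each of the 10 libraries, in CPM on a log axis whose range differs between panels; points are libraries, lines group means, - is uninduced and + induced. The 2 induced S34F points lie above all others in each of the 10 panels, and the gap is narrowest for MGAM2.

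TECTA, the inner ear matrix protein, stood at 40.4 and 24.4 CPM in the 2 induced S34F libraries. It was between 1.71 and 3.22 CPM in the other 8, which overlapped one another. The log2 difference was 3.66 ± 0.41 (SE) from induced WT, 3.83 ± 0.42 from induced Q157R and 3.56 ± 0.55 from uninduced S34F. In the other lines the TECTA ratio of induced to uninduced lay on both sides of 1: it was 1.37 and 0.628 in the replicates of WT and 0.839 in Q157R, against 14.7 in S34F replicate 1.

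AVIL, the sensory neuron advillin, stood at 47.8 and 32.3 CPM in induced S34F cells and between 2.44 and 4.31 CPM in the other 8 libraries. The highest of those 8 was 1 of induced WT. The log2 difference was 3.29 ± 0.32 from induced WT, 3.77 ± 0.33 from induced Q157R and 4.02 ± 0.45 from uninduced S34F, and the ratio of induced to uninduced S34F replicate 1 was 19.4.

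KLRD1, the CD94 chain, had the largest relative difference of the 10 on the fewest reads. It stood at 11.2 and 7.03 CPM in induced S34F (283 and 214 counts) and between 0.0858 and 0.663 CPM, from 2 to 18 counts, in the other 8 libraries. The log2 difference was 4.07 ± 0.55 from induced WT, 4.50 ± 0.57 from induced Q157R (5.29 without induced Q157R replicate 2) and 5.95 ± 0.85 from uninduced S34F, where the gene had 5 counts. KLRD1 was also above its uninduced level after doxycycline in WT, by 4.94 and 2.82 times, and in Q157R, by 2.04 times, all on those few counts. The lower S34F library still had 10.6 times the highest of the 8 others.

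NAALAD2, MSH4 and NEB were low in every library outside induced S34F. NAALAD2 stood at 32.8 and 21.6 CPM in induced S34F and 3.90 to 6.14 CPM elsewhere, and its log2 difference from induced WT was 2.17 ± 0.31. MSH4, which acts with MSH5 on meiotic crossovers, stood at 31.7 and 30.2 CPM against 3.31 to 9.13 CPM, with 2.04 ± 0.34. NEB stood at 39.7 and 35.2 CPM against 6.21 to 12.3 CPM, with 1.86 ± 0.32. The S34F libraries of MSH4 and NEB lay close together, and the highest other library was induced WT replicate 2 for both. Against induced Q157R the 3 log2 differences were 2.24 ± 0.31, 2.71 ± 0.35 and 2.10 ± 0.33.

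ALPK3, the muscle alpha-kinase, reached the highest CPM of the list, 59.9 and 39.0 in induced S34F. Induced WT came next, at 15.9 and 9.13 CPM, and the 6 other libraries lay between 5.62 and 8.14 CPM. The log2 difference was 1.98 ± 0.33 from induced WT and 2.77 ± 0.34 from induced Q157R. Doxycycline went with 2.84 and 1.61 times higher ALPK3 in WT and 1.22 times in Q157R, against 9.87 times in S34F.

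C20orf204, PTGDR2 and MGAM2 were also higher in induced than uninduced cells of every line. C20orf204 stood at 35.0 and 31.4 CPM in induced S34F, at most 8.52 CPM in induced WT, 8.48 and 9.01 CPM in induced Q157R, and 3.69 to 4.72 CPM uninduced. Induced S34F lay above all other libraries, as for 17.3% of all genes tested, which for C20orf204 follows from the listing. The other induced libraries lay above the uninduced ones, and the share of all genes with that order was not counted. The log2 difference was 2.09 ± 0.22 from induced WT and 1.92 ± 0.21 from induced Q157R. PTGDR2, the prostaglandin D2 receptor, stood at 26.8 and 32.4 CPM in induced S34F, 6.66 to 13.4 CPM in induced WT and Q157R, and 3.21 to 6.07 CPM uninduced, with log2 differences of 1.49 ± 0.37 from induced WT and 1.66 ± 0.38 from induced Q157R. MGAM2 stood at 21.0 and 27.2 CPM in induced S34F and at 18.2 CPM in 1 induced Q157R library, so that the lower S34F library was 1.15 times the highest other. Its log2 difference was 1.20 ± 0.33 from induced WT, 0.68 ± 0.32 from induced Q157R and 3.06 ± 0.47 from uninduced S34F. Ratios of induced to uninduced for MGAM2 were 2.64 and 2.40 in WT, 3.43 in Q157R and 7.27 in S34F.

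**Figure D2:**
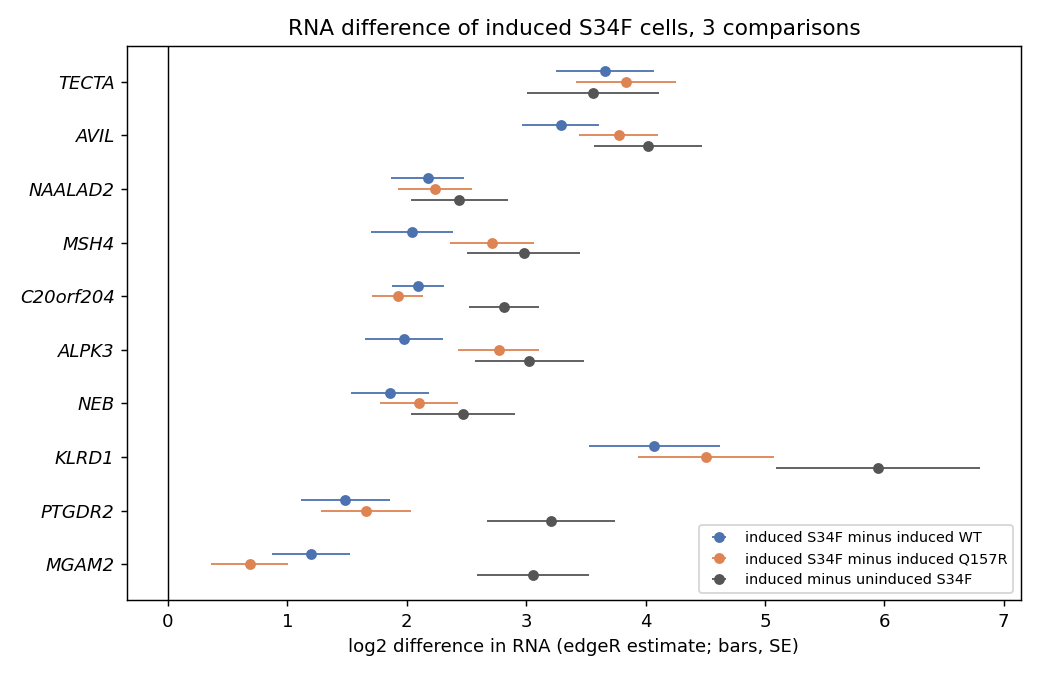
Difference in RNA between induced S34F cells and 3 other groups for each gene, on the log2 scale with bars of 1 SE. KLRD1, TECTA and AVIL lie farthest from 0 against induced WT (4.07, 3.66 and 3.29), and MGAM2 lies nearest against induced Q157R (0.68).

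Over the 10 genes, the ratio of induced to uninduced S34F (replicate 1, the only uninduced library) ran from 5.88 for NEB to 78.0 for KLRD1. The median ratio of the members was 1.78 and 1.69 in the WT replicates and 1.18 in Q157R, while the median of 20455 genes was between 0.997 and 1.01 in all 4 pairs. Ratios over 1.5 were found for 7 and 7 of 10 members in WT and 4 of 10 in Q157R, and for 15.6%, 17.6% and 16.8% of all genes. In S34F it was 10 of 10 members, a count that follows from the listing, and 27.4% of all genes. The induced S34F libraries disagreed with each other by up to 1.65 times (TECTA), and replicate 1 was the higher for 8 of 10, all but PTGDR2 and MGAM2.

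Per kilobase of exon the order changed. Exon length was the union of exons over all annotated transcripts of a gene, 17404 bases for KLRD1. The order therefore depends in part on the annotation. PTGDR2 (10.2 CPM per kb) and MSH4 (9.47) led in induced S34F, followed by AVIL (6.81), C20orf204 (6.06), ALPK3 (4.52), TECTA (3.87), NAALAD2 (3.75), MGAM2 (2.95), NEB (1.22) and KLRD1 (0.522). On that scale the libraries of PTGDR2 and MSH4 overlapped, as did those of AVIL and C20orf204 and those of each neighbour from ALPK3 to MGAM2. Those of MSH4 and AVIL, C20orf204 and ALPK3, MGAM2 and NEB, and NEB and KLRD1 did not. In these bulk libraries a change in the share of cells and a change in RNA per cell cannot be told apart.

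Uninduced Q157R against uninduced WT used no group named in the listing. None of the 10 genes passed (edgeR quasi-likelihood test, adjusted p of 1 for each, log2 differences from -0.59 ± 1.01 for KLRD1 to 0.24 ± 0.40 for ALPK3). Nor did any of the 21300 genes (0%; 234 at an unadjusted p under 0.05, and 0 with DESeq2), and uninduced Q157R was a single library.

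RNA-seq depth was 22392303 to 40370092 gene counts per library, and the induced S34F libraries stood apart in where reads fell: 44.1% and 43.6% of theirs lay in genes, against 49.5% to 56.1% in the other 8, and 33.7% and 33.5% lay outside annotated features, against 19.0% to 27.0%. The part of this in the members' levels was not tested. HEL markers were present in all libraries, with the 20 erythroid genes summing to 2142 to 3612 CPM. In induced S34F against induced WT 0 of 19 tested erythroid genes passed (1 higher and 5 lower with the replicate number as a block), and megakaryocyte and platelet genes had 1 of 15 lower, ITGB3, at 129 ± 2.86 against 249 ± 5.52 CPM (SD, n = 2 each; log2 -0.95 ± 0.17, edgeR adjusted p = 0.0448). With the block 9 of the 15 were lower, where 12.9% of all genes were lower and 9.56% higher, and their summed level was 4181 to 4666 CPM in induced S34F, 5777 to 6747 in induced WT and 4447 to 6956 in induced Q157R. The part of that difference in the members' values was not tested.

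Relatives of the members mostly did not pass the same test. Of 158 genes tested in 16 lists of families and cell types, 1 was higher and 3 lower in induced S34F than in induced WT, where 0.681% of all genes were higher and 0.991% lower. The lists had a median log2 difference of -0.17 over all their genes, beside 0.00 for all 21300 genes and -0.16 for the 13602 protein-coding ones. With the replicate number as a block the counts were 14 higher and 34 lower among the 158, and 2036 and 2743 among all genes.

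**Figure D3:**
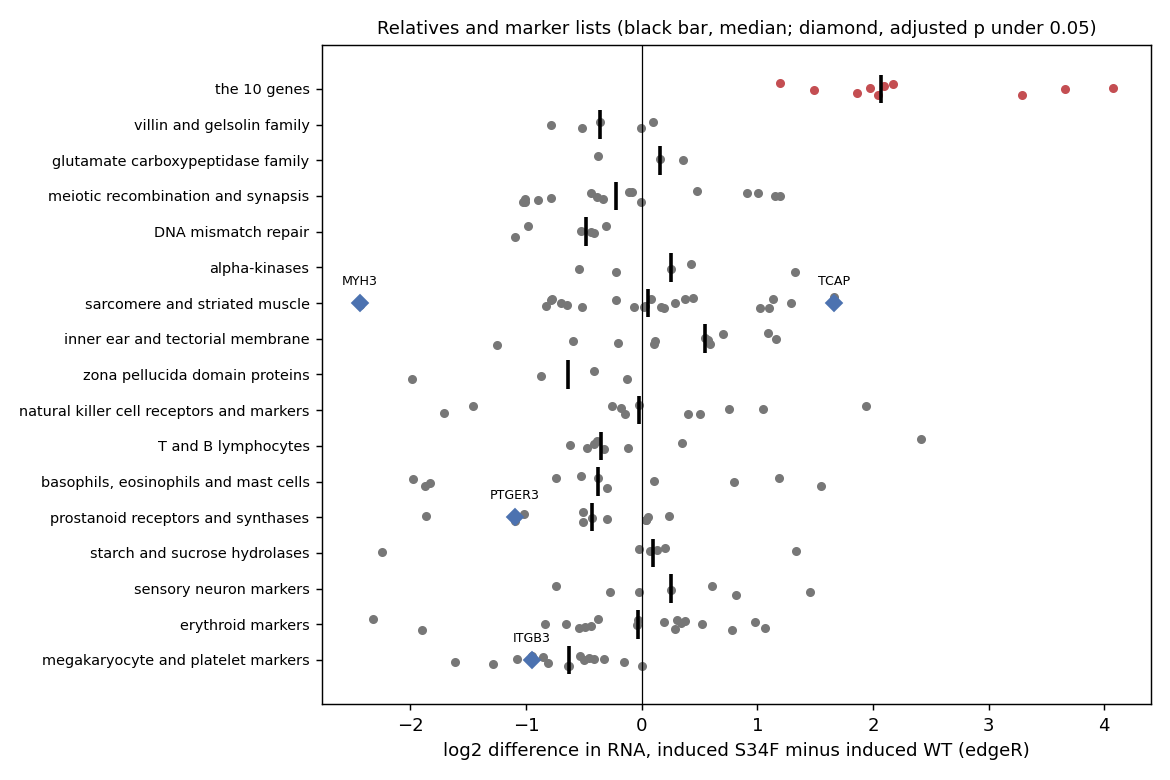
Log2 difference in RNA between induced S34F and induced WT for the 10 genes (red) and the tested genes of 16 lists (grey), with list medians as black bars and genes past an adjusted p of 0.05 as blue diamonds. TCAP is the single diamond to the right of 0, and the list medians lie between -0.64 and 0.55.

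Among 22 tested genes of the sarcomere, the home of nebulin, 13 were above and 9 below 0 with a median of 0.0549. TCAP, the titin cap, rose from 1.16 ± 0.0225 CPM in induced WT to 3.70 ± 0.0686 in induced S34F (SD, n = 2 each; log2 1.67 ± 0.31, edgeR adjusted p = 0.0451). MYH3, embryonic myosin heavy chain, fell from 2.71 to 0.506 CPM (log2 -2.44 ± 0.46, edgeR adjusted p = 0.0471, and -3.34 and -1.85 without induced S34F replicate 1 and 2). MYH1, MYH2 and MYL2, markers of mature muscle, were at 0 in every RNA library. Calls of TCAP, MYH3, PTGER3 and ITGB3 were all lost on leaving out any 1 library of induced S34F or WT, and with only those 2 groups fitted (adjusted p from 0.0760 to 0.359).

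In the prostanoid family PTGER3, a prostaglandin E2 receptor, fell from 308 ± 33.3 to 144 ± 19.5 CPM (SD, n = 2 each; log2 -1.09 ± 0.17, edgeR adjusted p = 0.0443). It was the only 1 of 11 tested members of that list to pass, and the list's median was -0.43. PTGDR, the other prostaglandin D2 receptor, was at 0 in all libraries.

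No gene of the natural killer list, which leaves out KLRD1 itself, passed. Of 28 such genes 11 were tested, 5 above and 6 below 0, with 0 called (2 lower and 1 higher with the replicate block) and a median of -0.03. CD244 stood at 31.6 CPM in induced S34F and 18.8 in induced WT (log2 0.76 ± 0.32, edgeR adjusted p = 0.205, and 0.0144 with the replicate block). NCAM1 stood at 15.4 and 15.7 CPM (log2 -0.0265 ± 0.20, edgeR adjusted p = 0.952). EOMES, GZMH, KIR2DL1 and KIR3DL1 were at 0 in every library. The summed list was 79.4 to 83.9 CPM in induced S34F and 60.4 to 82.6 in induced WT.

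The lists closest to the other members gave 0 calls each. In the villin and gelsolin family, 4 of 5 tested genes lay below 0, GSN at -0.78 ± 0.44 (edgeR adjusted p = 0.320, and 0.00781 with the block) and FLII at -0.51 ± 0.19 (adjusted p = 0.155, and 0.0197 with the block). All 6 mismatch repair genes lay below 0 while their relative MSH4 was higher, with MSH6 at -0.98 ± 0.25 (edgeR adjusted p = 0.0777, and 0.0150 with the block). Inner ear genes had a median of 0.55, with COL11A2 at 1.16 ± 0.33 (edgeR adjusted p = 0.0974, and 0.00875 with the block) and COL9A2 at 0.11 ± 0.59 (adjusted p = 0.930); TECTB, beta-tectorin, was at 0 in every library. Of the alpha-kinases, TRPM7 stood at 0.42 ± 0.21 (edgeR adjusted p = 0.269) and EEF2K at -0.22 ± 0.35 (adjusted p = 0.730). In the glutamate carboxypeptidase family, TFRC stood at -0.38 ± 0.35 (edgeR adjusted p = 0.548) and TFR2 at 0.16 ± 0.36 (adjusted p = 0.818).

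Among starch and sucrose hydrolases GANAB stood at -0.0246 ± 0.165 (edgeR adjusted p = 0.944) and GANC at 0.20 ± 0.19 (adjusted p = 0.542). MGAM, the close relative of MGAM2, named after its values were seen, was higher in both induced S34F libraries than in induced WT without passing (mean 42.9 CPM in S34F, log2 1.34 ± 0.29, edgeR adjusted p = 0.0601, and 0.00121 with the replicate block). Counting could divide reads between MGAM and MGAM2, so both values are uncertain.

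The genes whose pattern over the 10 RNA libraries was most like that of the members (Pearson correlation with the members' mean standardised log2 CPM, among 13589 other genes) were MADD (r = 0.992), CLEC4M (0.986), OGA (0.983), CDK17 (0.981), ZNF471 (0.980), TNFSF13B (0.980), TBC1D3F (0.979) and TOM1L2 (0.978). MADD stood at 253 ± 0.728 CPM in induced S34F (SD, n = 2) and 136 to 171 CPM in the other 8 libraries. TOM1L2 stood at 44.4 ± 2.26 against 14.3 to 23.8 CPM. The points share libraries and depth, and the 8 genes chosen by Spearman correlation shared 0 with these 8. Of the members, KLRD1 correlated most with that mean (0.997) and MGAM2 least. Each member is itself part of the mean and was listed for the same rise, so high values follow from the listing.

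The CLIP tables need a statement on strand before their entries can be read. In 1174 pairs of overlapping genes on opposite strands whose RNA levels differed at least 10-fold, the RNA table held more counts in the entry of the less abundant gene in 0 pairs by construction of the pairs, the eCLIP table in 751 of 1120 (67.1%) and the freCLIP table in 758 of 1106 (68.5%). Antisense entries held 0.498% of RNA counts but 27.6% of eCLIP and 26.8% of freCLIP counts, and MALAT1, an abundant nuclear RNA, had 1039079 RNA, 48 eCLIP and 49 freCLIP counts. In most of these pairs, then, more CLIP counts lay in the entry opposite the more abundant gene. The strand setting of the counting is not given in the sources used here, so CLIP counts are given by entry. For a single entry, whether its CLIP counts come from its own gene or from the gene opposite was not tested. A value at an entry, those of AVIL and NEB included, is therefore not a measure of binding to that gene's RNA. For that reason the entries overlapping the members were read too.

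Of 8 entries that overlap a member, 7 held at least 10 counts. TSFM, AC025165.5 and AC025165.4 lie opposite AVIL, RIF1 opposite NEB, CCDC86 opposite PTGDR2 and the snoRNA entry RF00402 opposite ALPK3, and AP000777.3 overlaps PTGDR2 on its strand. The other 6 members have no such entry. AVIL lies on chromosome 12 from 57797376 to 57818704 (GRCh38, minus strand), and TSFM, the mitochondrial translation factor EF-Ts, on the plus strand from 57782589 to 57808071. TSFM has 731 exon bases inside AVIL, 428 of them in AVIL introns and 303 in AVIL exons. AC025165.5 (57803838 to 57804415) and AC025165.4 (57814494 to 57814926) are lincRNA entries of 578 and 433 bases wholly within AVIL introns, ending 168 and 267 bases before the next AVIL exon.

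**Figure D4:**
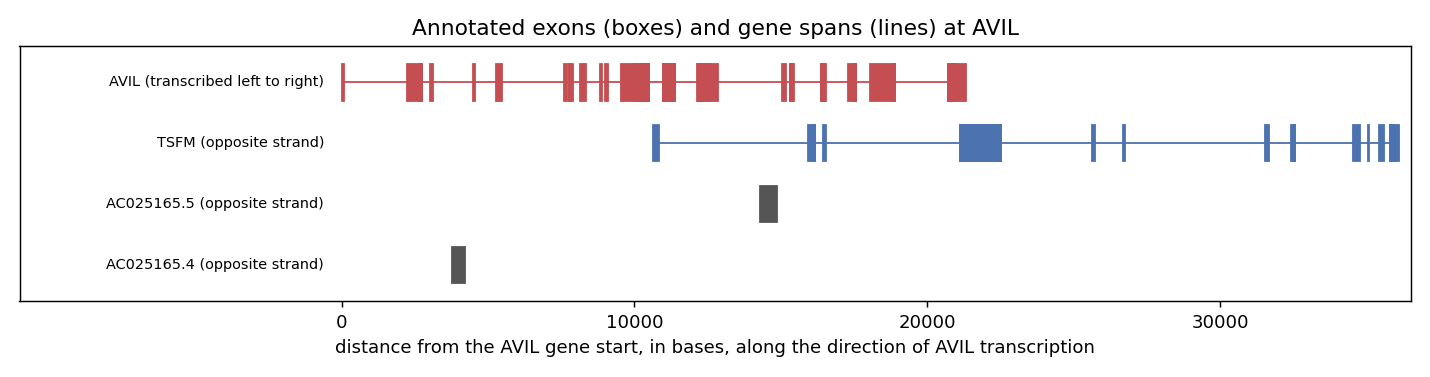
Annotated exons (boxes) and spans (lines) of AVIL and the 3 entries on the strand opposite, by distance in bases from the AVIL start along AVIL transcription. AC025165.4 and AC025165.5 lie between AVIL exons, and TSFM overlaps the later part of AVIL.

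The stretches of AC025165.4 that carry runs of at least 8 pyrimidines are shown as the AVIL strand reads, since U2AF2 prefers such tracts; capitals mark the run. These stretches were chosen after the 120 bases nearest the AVIL exon were seen to hold 0 runs.
AC025165.4, first run (chr12:57814810-57814897, - strand): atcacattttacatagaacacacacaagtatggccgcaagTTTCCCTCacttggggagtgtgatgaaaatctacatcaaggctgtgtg
AC025165.4, second run (chr12:57814609-57814697, - strand): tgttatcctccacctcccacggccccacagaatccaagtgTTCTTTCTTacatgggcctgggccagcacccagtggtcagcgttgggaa
The runs lie 623 and 422 bases before the next AVIL exon. Such a run was in 89.7% of 12180 lincRNA transcripts over their first 433 bases on the opposite strand.

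At the 3 entries opposite AVIL every S34F freCLIP library lay above every WT library of its fraction. TSFM and AC025165.5 passed the test over both fractions, AC025165.4 did not, and the call of AC025165.5 was lost in 6 of 17 alternatives. All 3 entries reached the test through their S34F libraries, where they are high, so the calls are to be read with that limit. The fit took light and heavy libraries as independent. Those of the same genotype and number may come from the same preparation, which the labels do not settle, so p-values over both fractions may be too small. The TSFM entry had 26, 12 and 22 counts in the light S34F libraries and 49, 35 and 64 in the heavy ones. It had 2, 0 and 0 counts in light WT, 4, 5, 3 and 3 in heavy WT, 0 and 0 in light Q157R and 2 and 2 in heavy Q157R. In CPM the entry was at 189 ± 61.1 (SD, n = 3) in light S34F against 7.97 ± 13.8 (n = 3) in light WT, and at 208 ± 79.8 (n = 3) in heavy S34F against 26.4 ± 25.7 (n = 4) in heavy WT. Every S34F library lay above every WT library in both fractions, as was so for 7.08% of entries in the light and 7.76% in the heavy fraction.

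Over both fractions the TSFM entry rose by 4.13 ± 0.86 on the log2 scale (edgeR quasi-likelihood test, adjusted p = 0.00369), 1 of 66 entries called higher among 6833 tested (0.966%). For the filter on low counts the S34F libraries, where TSFM, AC025165.5 and AC025165.4 are high, count too. Outside S34F the TSFM entry had at most 5 counts in a library, so its testing rested on the S34F libraries. The TSFM entry was called under each of 17 alternatives, with log2 differences from 3.76 to 5.83, the highest without light WT replicate 2. On summed counts S34F was 18.7 times WT (95% exact interval 11.4 to 32.7), an interval of counting error only. By fraction it was 5.01 ± 1.37 in the light (edgeR adjusted p = 0.0795; 0.19% of entries were called higher) and 3.25 ± 1.04 in the heavy one (adjusted p = 0.396; 0.0878% were), and neither passed. The light difference passed with DESeq2 (5.30, adjusted p = 0.0103) and without light WT replicate 2 (8.37, adjusted p = 0.0323), where the WT libraries left had 0 counts, and the heavy one with only the compared groups in the fit (3.69, adjusted p = 0.00368). The light and heavy differences were not shown to differ (edgeR, 1.76 ± 1.69, adjusted p = 1.00 in a comparison added after the data were seen, with 0 of 6833 entries called and 321 at an unadjusted p under 0.05).

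AC025165.5 had 8, 4 and 18 counts in light S34F and 31, 12 and 16 in heavy S34F. Light WT had 0, 0 and 0 counts, heavy WT 1, 2, 4 and 10, and Q157R 1 count in its 4 libraries. Scaled for depth, S34F lay above WT in both fractions, as was so for 7.08% of entries in the light and 7.76% in the heavy fraction. The entry rose over both fractions (edgeR adjusted p = 0.0190; the fitted log2 value of 4.87 ± 1.21 rests in part on light WT at 0 and is no measure of size), and S34F was 7.98 times WT on summed counts (4.72 to 14.3). In the heavy fraction the log2 difference was 2.59 ± 1.26 (adjusted p = 1) and the ratio of summed counts 5.42 (3.12 to 9.92). In the light fraction, where WT had 0, S34F was at least 14.3-fold higher, taking 3 counts over the WT libraries as the floor; the light test did not pass in edgeR (adjusted p = 0.107) and did in DESeq2 (0.0193). Outside S34F the AC025165.5 entry had at most 10 counts in a library, so its testing too rested on the S34F libraries. The call held in 11 of 17 alternatives. It was lost without heavy S34F replicate 1 (adjusted p = 0.114) or 2 (0.0550), heavy WT replicate 3 (0.0607) or light WT replicate 3 (0.0501), with no filter on low counts (0.0584) and with the replicate block (0.0779).

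AC025165.4 had 10, 3 and 10 counts in light S34F, 6, 12 and 15 in heavy S34F, 0, 1 and 0 in light WT, 0, 1, 3 and 0 in heavy WT and 0 in all 4 Q157R libraries. The libraries of S34F lay above those of WT in both fractions, as was so for 7.08% of entries in the light and 7.76% in the heavy fraction. With WT at so few counts, testing of this entry rested on the S34F libraries as well. The difference of 4.20 ± 1.32 did not pass in edgeR (adjusted p = 0.0820) and did in DESeq2 (4.41, adjusted p = 0.0115). The entry passed the filter on low counts in 9 of the 17 alternatives, and was called in that 1. Over summed counts S34F was 17.1 times WT (6.90 to 54.6) and at least 8.78-fold higher than Q157R.

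**Figure D5:**
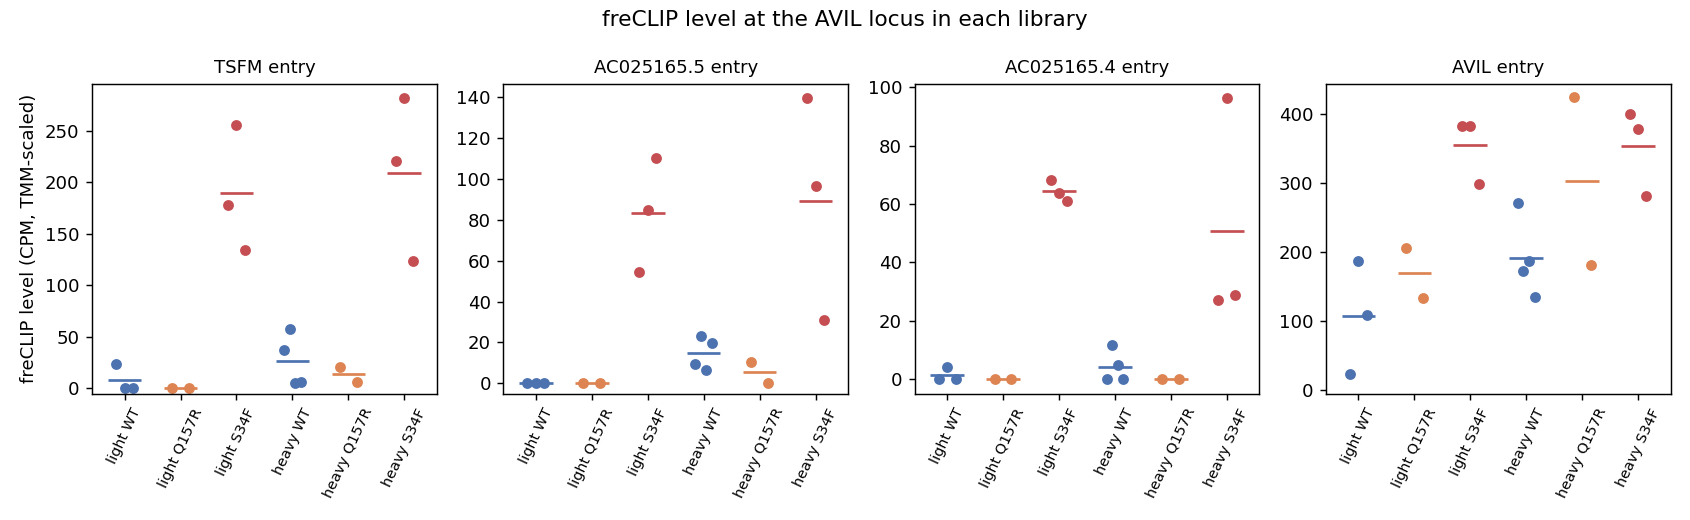
freCLIP level in CPM of the TSFM, AC025165.5, AC025165.4 and AVIL entries in each library by fraction and genotype, with group means as lines; the axis range differs between panels. S34F libraries lie above WT and Q157R libraries in the first 3 panels, while in the AVIL panel heavy S34F and heavy Q157R overlap.

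The AVIL entry itself had larger counts and a smaller difference. In the light fraction it had 56, 18 and 49 counts in S34F, 2, 46 and 16 in WT and 10 and 18 in Q157R. In the heavy one it had 89, 47 and 146 in S34F, 29, 15, 115 and 69 in WT and 40 and 59 in Q157R. Scaled for depth, the S34F libraries lay above those of WT in both fractions, as was so for 7.08% of entries in the light and 7.76% in the heavy fraction. Mean levels were 355 CPM in S34F against 107 in WT in the light fraction and 353 against 192 in the heavy one. The heavy gap was narrow, with the lowest S34F library at 281 CPM and the highest WT library at 271 CPM. The difference of 1.27 ± 0.42 over both fractions did not pass in edgeR (adjusted p = 0.0984), and passed in DESeq2 (1.37, adjusted p = 0.00879) and without light WT replicate 3 (1.64, adjusted p = 0.0448). RNA of AVIL was higher in induced S34F while RNA of the entries opposite did not pass: TSFM stood at 12.8 ± 0.0475 CPM in induced S34F and 14.8 ± 0.348 in induced WT (SD, n = 2 each; log2 -0.21 ± 0.21, edgeR adjusted p = 0.561), AC025165.5 at 1.16 and 0.790 CPM (0.58 ± 0.44, adjusted p = 0.458), and AC025165.4 at 0.792 and 0.334 CPM (1.24 ± 0.49, adjusted p = 0.180). In induced Q157R the RNA of AC025165.5 stood at 1.38 and 1.63 CPM and that of AC025165.4 at 0.744 and 0.954 CPM, and their freCLIP counts were 1 and 0.

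At NEB no freCLIP difference passed. NEB had 6, 5 and 29 counts in heavy S34F and 5, 9, 72 and 33 in heavy WT, and 17, 0 and 1 in light S34F and 0, 40 and 32 in light WT, so the groups overlapped (log2 -1.26 ± 0.78 over both fractions, edgeR adjusted p = 0.458, and from -2.83 without light S34F replicate 1 to -0.94 without light S34F replicate 3). RIF1, the entry opposite NEB and a DNA repair and replication timing factor, had 36, 20 and 51 counts in heavy S34F and 8, 11, 8 and 20 in heavy WT, and 7, 6 and 7 in light S34F and 8, 0 and 8 in light WT; the groups overlapped in CPM in both fractions (0.88 ± 0.76 over both fractions, adjusted p = 0.638). RIF1 RNA stood at 172 ± 0.0950 CPM in induced S34F and 226 ± 64.2 in induced WT (log2 -0.40 ± 0.25, edgeR adjusted p = 0.369). RIF1 has 2440 exon bases inside NEB, 2274 of them in NEB introns. The 3 NEB 3' splice sites within RIF1 exons could be read from the RIF1 transcript, and they are shown because the base before the AG is the one U2AF1 S34F is known to read differently; capitals mark the last 3 bases of the intron.
NEB site 1 (chr2:151507009-151507033, - strand): tgtttactctttcttcaTAGctcca
NEB site 2 (chr2:151506254-151506278, - strand): tcctgattctgaatgccCAGgtttt
NEB site 3 (chr2:151499386-151499410, - strand): tgctttcttgtgtcataCAGgtgtt
One ends in TAG and the other two in CAG, and 10, 13 and 5 annotated NEB transcripts use them. Counts per gene do not show which site was used.

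Of the remaining members, 5 had 6 freCLIP counts or fewer. NAALAD2 had 219 eCLIP and 226 freCLIP counts, and its S34F and WT freCLIP libraries overlapped (log2 -0.72 ± 0.84 over both fractions, edgeR adjusted p = 0.758, and from -2.003 without light S34F replicate 1 to -0.0881 with the replicate block). Only AVIL, NAALAD2 and NEB passed the filter on low freCLIP counts, and 0 of these 3 were called where 2.02% of all entries were. TECTA had 3 freCLIP counts, MSH4 3, KLRD1 2, ALPK3 5, MGAM2 6 and C20orf204 31, of which 26 were in heavy S34F replicate 3. PTGDR2 had 183, of which 154 were in light Q157R replicate 3. The freCLIP libraries held 38415 to 730996 gene counts. Members that missed the filter were not tested for a difference. Whether depth or the strand of counting lay behind their few counts was not tested either.

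In eCLIP of WT cells AVIL was again the member with the most counts, 617 for U2AF1 and 617 for U2AF2 over 3 and 4 libraries. NEB had 261 counts in all, NAALAD2 219, PTGDR2 58, TECTA 25, ALPK3 22, C20orf204 19, KLRD1 14, MGAM2 8 and MSH4 1. Among the entries opposite, RIF1 had 426, TSFM 105, AC025165.5 64 and AC025165.4 22. No member tested passed between U2AF1 and U2AF2: AVIL at -0.0569 ± 0.25, NEB at 0.73 ± 0.56, NAALAD2 at 0.83 ± 0.51 and PTGDR2 at -1.30 ± 1.12 (log2 U2AF1 minus U2AF2, edgeR adjusted p from 0.763 to 0.967), nor was any of 10521 entries called (0%; 601 at an unadjusted p under 0.05, and 30 with DESeq2). With 2 biological replicates per protein and 306711 to 1148212 counts per library, that comparison had few residual degrees of freedom.

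At PTGDR2 and ALPK3 the overlapping entries did not pass the filter on low freCLIP counts. CCDC86, opposite PTGDR2 with 142 shared bases, stood at 26.4 ± 3.29 CPM of RNA in induced S34F and 63.1 ± 23.3 in induced WT (log2 -1.26 ± 0.36, edgeR adjusted p = 0.0982, and 0.00336 with the replicate block), in the direction opposite to PTGDR2. AP000777.3 had 9 RNA counts in all 10 libraries, 45 eCLIP and 56 freCLIP counts. RF00402 had 0 RNA counts, 7 eCLIP and 40 freCLIP counts, of which 22 were in heavy WT replicate 4 and 16 in heavy S34F replicate 3.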

How the data were processed

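For 34 of 43 samples the authors deposited raw counts of reads per gene; the other 9, from TimeLapse-seq, are not analysed here. Build GRCh38.p10 and, among other tools, HTSeq, HISAT2 and STAR (2.5.3a, 2.7.0f) are listed in the submitters' processing notes without roles; the annotation release and strand setting are not given in the sources used here. Of 58347 entries that name a gene, 58084 matched GENCODE release 29, which gave symbols and GRCh38 coordinates. Lines for reads that named no gene stayed out of library sizes. No molecular identifiers were used in the tables, so intervals and floors (3 counts) cover counting error only.

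Tests were run with edgeR 4.0.16 (TMM, filterByExpr with a minimum count of 10, robust quasi-likelihood F test, 1 mean per group over all libraries of an assay, Benjamini-Hochberg adjustment over all entries tested, threshold 0.05), checked on simulated data. Technical eCLIP replicates were summed. Single-library groups borrow the spread of the others. The labels do not say that replicates were separate cultures, so p-values measure a spread that may be technical. Likeness was ranked by Pearson correlation. Promoter sequences are RefSeq's on GRCh38.p14, and transcript sequences GENCODE's. Alternatives were RLE scaling, no filter, DESeq2 1.42.0, the replicate block, only the compared groups, only biological eCLIP replicates and leaving out each library. The RNA replicate numbers, taken from the labels, paired the libraries: deviations of same-numbered libraries correlated by more than 0.1 in 6 of 6 pairs of groups (with 2 replicates both numbers give 1 value), at 0.211 to 0.652.

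The members, gene lists and tests were chosen with earlier results of these data known. All 10 members were named; overlapping entries with at least 10 counts were named; and from each list the called genes, up to 3, or the 2 most abundant. The strand check, the light against heavy comparison and the search for pyrimidine runs were added after the data were seen. A result for 1 gene of the lists and 1 sequence are not reported here.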

Additional observations from a re-analysis of the deposited data

Results flagged for a closer look

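In heavy WT freCLIP, the only group of 4 once technical eCLIP replicates were summed, 12 entries were examined for a library far from the others and 2 were past the limit. MGAM2 had 4 counts in replicate 4 and 0 in the other 3, a gap of 1 times the range. RF00402 had 22 counts in replicate 4 and 0, 0 and 1 in the others, a gap of 0.962 of the range. A gap of 1 times the range arises whenever 1 library alone holds counts. How often chance flags entries with counts this low was not measured, so no meaning is given to these flags.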

How the results depend on the processing

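Counts of called genes moved with most settings, and the cause was not tested. Induced S34F against WT had 356 calls, with no filter on low counts 2410, with the replicate block 4779, with DESeq2 1659, with only the compared groups 0, and on leaving out any 1 library 0. Induced S34F against Q157R had 119, and under those settings 2135, 4261, 1332, 0 and 0. Induced against uninduced S34F had 418, and 2992 with no filter, 4099 with the block, 1851 with DESeq2 and 0 without any 1 library. Uninduced Q157R against WT had 0, and 119 with no filter. freCLIP over both fractions had 138, and 74 with no filter, 72 with the block, 306 with DESeq2 and 62 to 205 on leaving out 1 library. The light fraction had 23, and 11 with no filter, 145 with DESeq2, 4 with only the compared groups and 6 to 28 on leaving out 1. The heavy fraction had 9, and 1, 43 and 240 under those 3 settings, 17 with the block and 0 to 2 on leaving out 1. eCLIP had 0, and 24 with no filter, 11 with the block, 30 with DESeq2 and 0 to 6523 on leaving out 1, where 1 protein was left with 1 replicate. RLE scaling kept each of these counts within 1.5 times. Deviations of same-numbered freCLIP libraries correlated by more than 0.1 in 6 of 34 pairs (33 distinct values), at 0.00176 to 0.145. At these low counts that does not settle whether they shared more than a number.

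The members' log2 differences between induced S34F and the 3 other groups kept their sign in 240 of 240 fits and moved by 1 SE or more in 13. The kept sign largely follows from the listing, which used these differences, and is no separate support. On leaving out 1 library the sign turned for 11 differences that had not passed. Between induced S34F and WT these were TFR2 (log2 -0.18 to 0.58), EEF2K (-0.59 to 0.24), COL9A2 (-0.42 to 0.76), NCAM1 (-0.23 to 0.16) and GANAB (-0.15 to 0.0935). Between uninduced Q157R and WT they were AVIL (-0.45 to 0.12), NAALAD2 (-0.15 to 0.47), C20orf204 (-0.0284 to 0.0239), KLRD1 (-1.08 to 0.33) and MGAM2 (-0.57 to 0.0328), and in eCLIP NEB (-0.0472 to 1.14). In uninduced cells C20orf204 also turned with RLE (0.0119), no filter (0.0121) and DESeq2 (0.0116), and ALPK3 with the block (-0.00905). AVIL in eCLIP turned with only the biological replicates (0.0250). Without U2AF1 replicate 1, NEB, NAALAD2 and PTGDR2 passed in eCLIP. Without TMM scaling, 3 levels in induced S34F and 2 in uninduced WT moved by more than the spread of the replicates: MSH4 to 35.0 CPM, C20orf204 to 37.6 and NEB to 42.4, and C20orf204 to 3.50 and ALPK3 to 5.26. The block changed the side of the threshold for the genes whose block value stands with the results and for AC025165.5; MSH6, COL11A2, MGAM and CCDC86 also passed with DESeq2 and with no filter, and GSN with no filter. Low counts limit KLRD1 in RNA and TECTA, MSH4, KLRD1, ALPK3 and MGAM2 in freCLIP; AC025165.4 gave no value in 8 of 17 alternatives because it missed the filter.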
